A study of Rattus norvegicus with 9 samples.

Results

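The transcripts described are those of the cytochrome P450 enzymes and of other phase I enzymes in the proximal colon of male Sprague Dawley rats. Members were the probe sets of the Affymetrix rat genome GeneChip that the platform annotation gives a single gene symbol of the Cyp, Adh, Aldh, Fmo, Ephx or Ces families followed by a digit, together with Por. Aldh1a1 and Aldh1a2 were left out. The rule took 69 genes, read by 114 of the 8799 probe sets, and used no measured value. The dams were put on AIN-93G diets during pregnancy, and their offspring, the rats studied, stayed on the diet of the dam for life. The diets differed in protein source alone. The protein was casein (CAS) in the control diet, and soy protein isolate (SPI) and a hydrolysate of whey protein (WPH) in the others. All rats, CAS included, received azoxymethane (AOM), a colon carcinogen, at 15 mg/kg subcutaneously once a week in 2 injections from 90 days of age. Tissue without tumor was taken 40 weeks later, and no group without AOM was analysed here. Each diet is 1 pool of RNA from 7 rats. From every pool 3 targets were made in parallel from 8 µg and were hybridized to 3 arrays per diet, 9 in all, so that the spread between arrays is technical and a p-value compares pools, not rats.

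Phase I enzymes add or uncover a reactive group on lipophilic compounds. Cytochrome P450s are heme enzymes that insert oxygen with electrons from NADPH, which in the endoplasmic reticulum reach them through P450 oxidoreductase (Por). Members of the Cyp1 to Cyp3 families oxidize drugs, carcinogens and steroids, Cyp4 enzymes hydroxylate fatty acids and eicosanoids, and other P450s make or clear sterols, bile acids and vitamin D. Alcohol and aldehyde dehydrogenases, flavin monooxygenases, epoxide hydrolases and carboxylesterases act on the compounds themselves or on what P450s leave. In the intestine these enzymes are known mainly from the epithelium, and AOM is known to be activated by P450 and alcohol dehydrogenase.

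Phase I transcripts were more often lower than higher in both diets when set against CAS. With WPH, Cyp3a9, Cyp4f1, Cyp4f4, Cyp4f5 and both compared Cyp2j3 probe sets fell furthest. With SPI, Cyp4f1 and Cyp4f4 fell furthest among members over 100 with CAS, whereas Cyp3a9 did not pass the test. Cyp7b1 was higher with both diets and Cyp1b1 was higher with SPI. Both were dim with CAS (means of 51.8 and 48.4) and entered the comparisons only through diets where they were high. Their calls against CAS were lost in a fit with the fluidics round of the arrays as a block. That fit kept 15 of the 21 lower calls with WPH against CAS and 3 of the 15 with SPI. Of the 114 probe sets, 57 (42 genes) averaged a signal of 100 or more on the arrays of some diet, and these entered the comparisons. A probe set counted as changed at an adjusted p under 0.05 in limma's moderated test, adjusted over all 5606 probe sets compared.

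With WPH against CAS, 21 member probe sets of 15 genes were lower, or 36.8% of the 57, where 17.9% of all probe sets compared were lower. In the same comparison 4 members were higher, or 7.02%, where 20.9% of all were higher. With SPI against CAS, 15 members of 14 genes were lower (26.3%, against 10.2% of all) and 3 were higher (5.26%, against 12.0% of all). With SPI against WPH, 11 members of 7 genes were higher (19.3%, against 10.1% of all) and 4 were lower (7.02%, against 9.83% of all). The median log2 change of the 57 was -0.36 with WPH and -0.32 with SPI against CAS, where the medians over all probe sets compared were 0.06 and -0.01. Between SPI and WPH it was -0.05, against -0.08 over all.

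The diets against CAS share the same 3 CAS arrays, so their counts are not independent. A member bright in 1 diet alone could enter only by differing, and 7 were of this kind (Cyp1a2, Cyp1b1, Cyp2c11, Cyp2f4, Cyp3a23-3a1, Cyp4f4 and Cyp27b1, a probe set each). Among the 46 members with a mean of at least 100 in all 3 diets, 19 were lower and 3 higher with WPH, and 13 were lower and 1 higher with SPI. The shares over all probe sets given above were not limited in this way, so no background stands beside these counts. Of the 57 members not compared, 38 had a mean under 50 in every diet, and 32 belonged to Cyp1 to Cyp3. They left 27 genes with no probe set compared, among them Cyp1a1, Cyp3a2, Cyp3a18, Cyp4a1, Cyp7a1, Adh4, Adh7, Aldh5a1 and Fmo1.

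**Figure D1:**
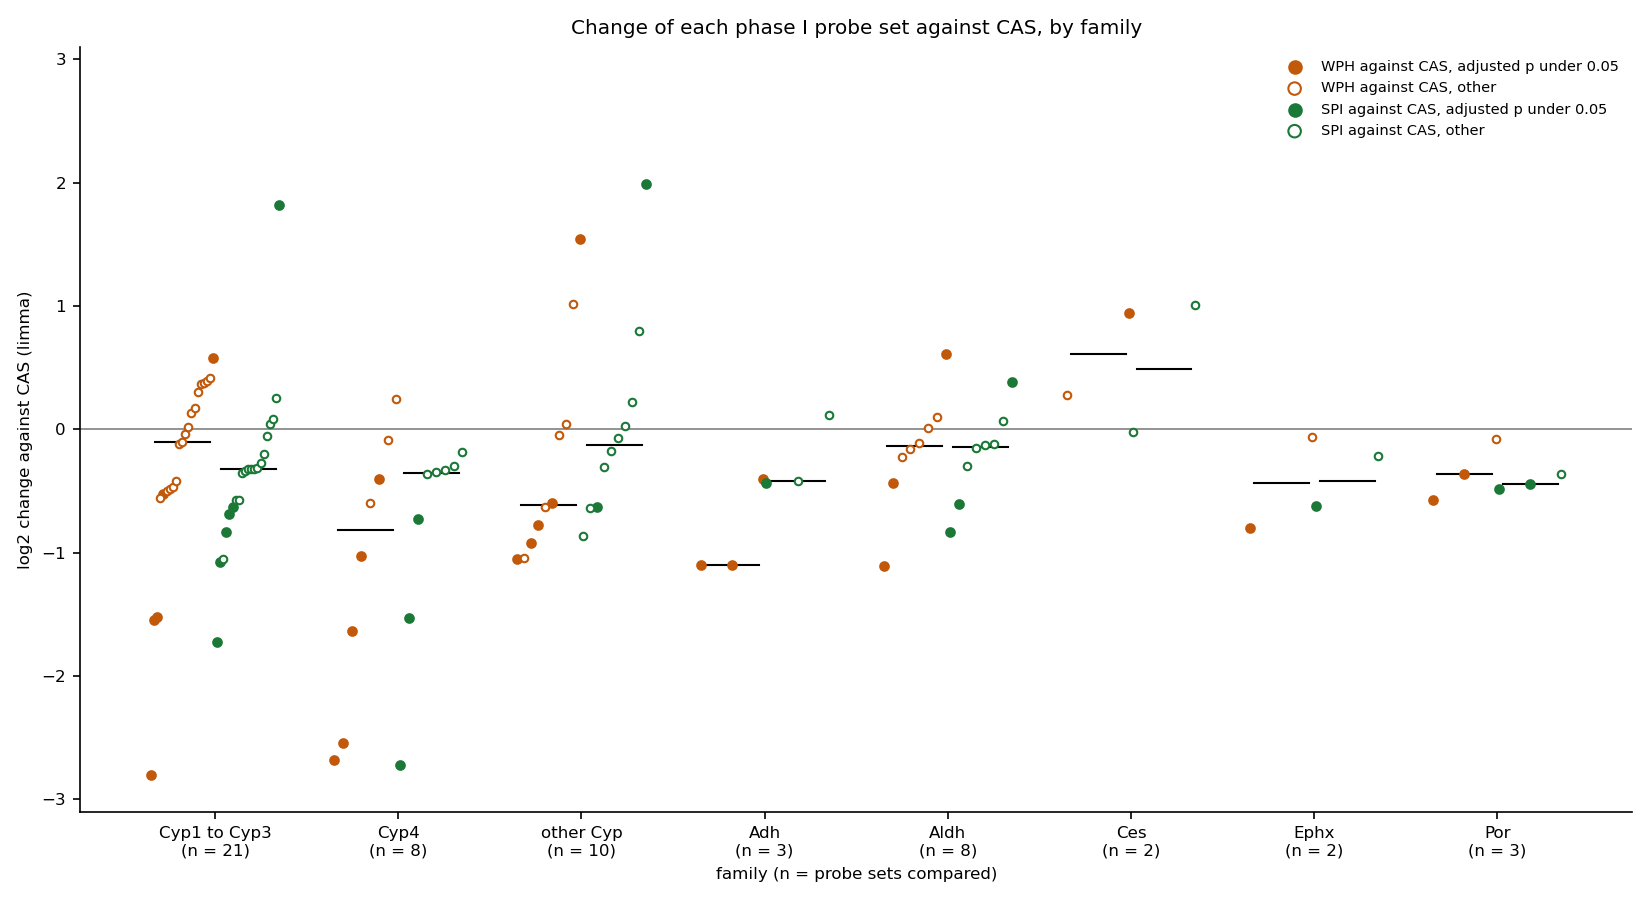
log2 change against CAS (vertical axis) of each of the 57 phase I probe sets compared, by family, with WPH in orange and SPI in green; filled points passed an adjusted p under 0.05, and a black line marks the family median. In Cyp4 5 of 8 points with WPH and 3 of 8 with SPI are filled, all below 0.

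The settings files of the instrument give a hybridization date and time for each array. A gap of over 30 minutes was taken to start a new round, so that the rounds are inferred from these times. This gave 3 rounds, called fluidics rounds here. All CAS arrays and WPH array 2 were in the first, SPI arrays 1 and 2 with WPH arrays 1 and 3 in the second, and SPI array 3 alone in the third. No SPI array shared a round with CAS. With the round as a block, 15 of the 21 lower calls of WPH against CAS were kept, and not those of Aldh6a1, Cyp2d2, Cyp4f6, both Por probe sets and Cyp51 (rc_AA997614_s_at). In that fit 3 of the 15 lower calls of SPI against CAS (Cyp4f1, Cyp4f4 and Cyp2c23) and none of the 3 higher ones were kept. Between SPI and WPH 9 of 11 higher and 2 of 4 lower calls were kept, and not those of Adh1c (M15327_at), Cyp2j3 (U39943_s_at), Aldh6a1 and Cyp27a1. Of the 4 higher calls of WPH against CAS, 1 was kept (Aldh2). Within the first round, where WPH is 1 array and no test could be made, 25 of 25 changes of WPH against CAS kept their direction and 9 moved by more than the spread between arrays, with Cyp2c23 falling from 0.58 to 0.27 on the log2 scale. Within the second, 15 of 15 changes between SPI and WPH kept their direction and 1, of Cyp2c23, so moved (from -1.41 to -1.72). The lower count with SPI against CAS was 8 without CAS array 3 and 8 without SPI array 1. The higher count with WPH was 2 without CAS array 3, SPI array 1 or WPH array 1. The lower count of SPI against WPH was 2 without SPI array 1, SPI array 3 or WPH array 2, and 1 without WPH array 3. The ratio of 3′ to 5′ signal of β-actin was 1.83 to 1.88 on CAS arrays, 2.14 to 2.36 on SPI arrays and 2.53 to 3.50 on WPH arrays, and its part in the results was not tested.

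Tissue markers moved with the diets as well. The colon segments held mucosa and muscle together. Epithelial markers were lower with WPH in 13 of 13 genes measured and with SPI in 10 of 13, and their summed signal ran from 53017 to 55860 with CAS, from 31869 to 33148 with SPI and from 13316 to 14296 with WPH. The mean sum was 3.98-fold lower with WPH and, with SPI, 1.68-fold lower. The median log2 change of the 13 epithelial markers was -2.31 with WPH and -0.84 with SPI. Smooth muscle markers were higher in 7 of 7 genes with both diets, and enteric neuron markers in 8 of 9 with WPH and 6 of 9 with SPI. In such bulk tissue fewer cells of a type and less RNA per cell cannot be told apart. The part of the epithelial markers in the fall of the members was not tested.

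**Figure D2:**
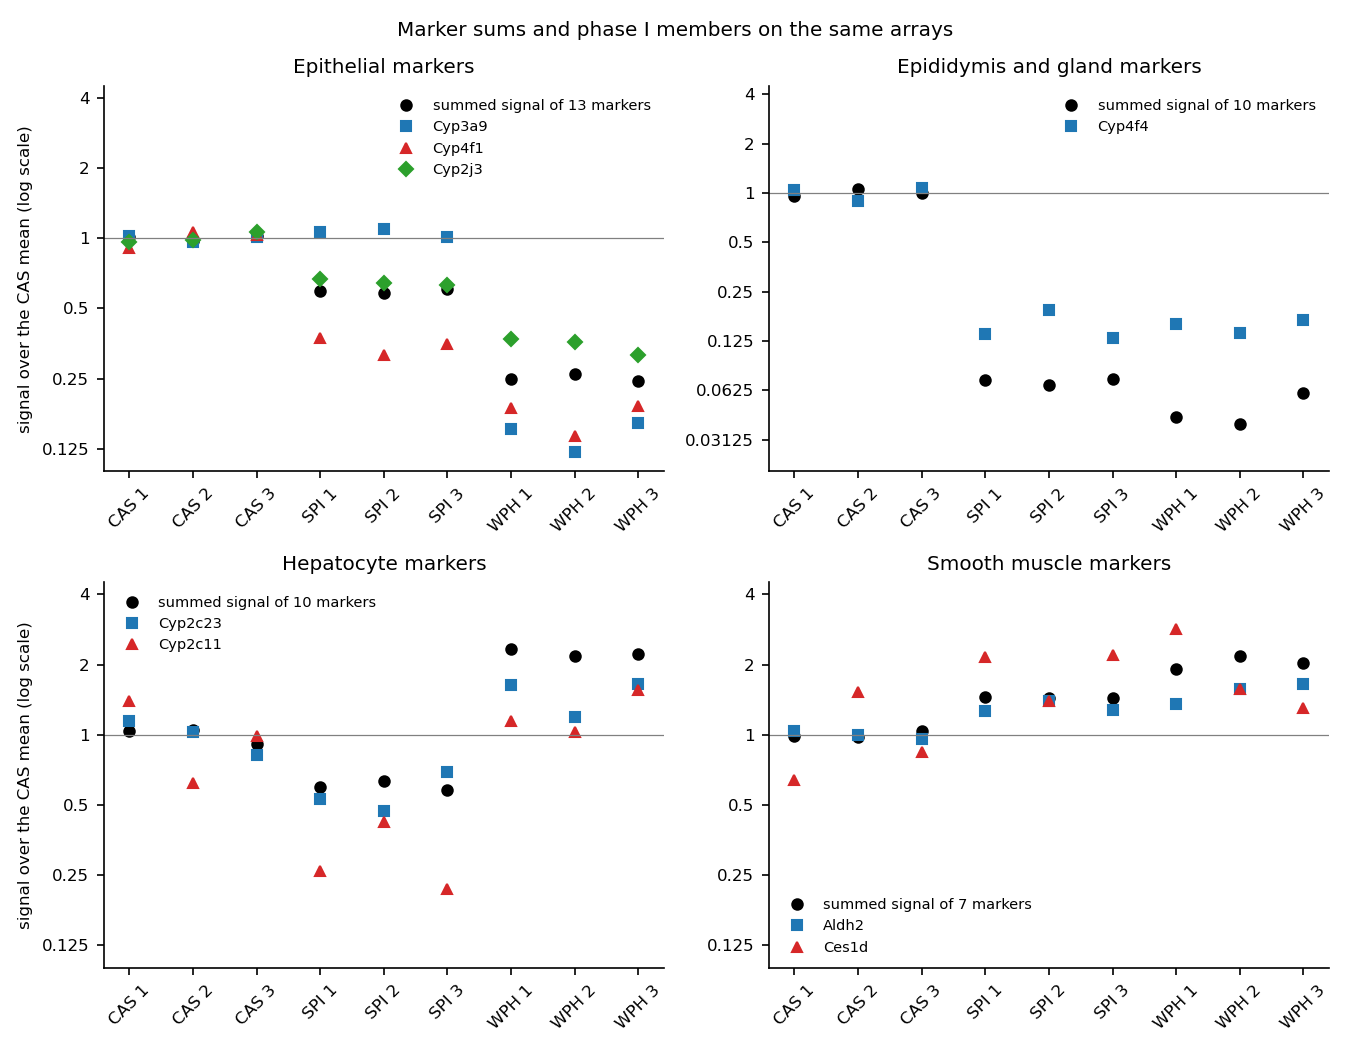
Signal on each array divided by the mean of the 3 CAS arrays (vertical axis, log scale), for the summed marker genes of a tissue (black) and for members chosen after their values were seen. The epithelial sum and Cyp4f1 and Cyp2j3 (U40004_s_at) step down from CAS to SPI to WPH while Cyp3a9 is low with WPH alone, and the hepatocyte sum is lowest with SPI and highest with WPH, as is Cyp2c23.

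Several of the largest falls were in the Cyp4 family. Of the 8 Cyp4 probe sets compared, 5 passed as lower for WPH and 3 for SPI, and none was higher, with a median log2 change of -0.82 and -0.35. The shares lower were 62.5% with WPH and 37.5% with SPI, where 17.9% and 10.2% of all probe sets compared were lower. With 8 probe sets these are small counts. Cyp4f enzymes are known for omega-hydroxylation of leukotriene B4 and other eicosanoids, the step that ends their signalling. In the rat annotation 8 Cyp4f genes lie on chromosome 7, with 6 other protein-coding genes between the first and the last. Their order is Cyp4f39, Cyp4f17, Cyp4f5, Cyp4f37, Cyp4f40, Cyp4f4, Cyp4f1 and Cyp4f6, with Cyp4f1 and Cyp4f6 next to each other. Of these, Cyp4f4, Cyp4f1, Cyp4f5 and Cyp4f6 were lower with WPH, and Cyp4f17 did not pass the test in any comparison.

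The 250 bases upstream of the start sites of the lower Cyp4f genes that RefSeq gives 1 promoter (assembly GRCr8) are shown with that of Cyp3a9, the member that fell furthest in ratio among those with a signal over 100 throughout. Each is printed 5′ to 3′ on the strand of the gene. Capitals mark matches on either strand to GCGTG, the core of the xenobiotic response element, or GTTAAT, part of the HNF1 site. They lie at chr7:12672554-12672803 (minus strand, Cyp4f1), chr7:12194387-12194636 (plus strand, Cyp4f5), chr7:12708379-12708628 (minus strand, Cyp4f6) and chr12:21960161-21960410 (minus strand, Cyp3a9).
Cyp4f1: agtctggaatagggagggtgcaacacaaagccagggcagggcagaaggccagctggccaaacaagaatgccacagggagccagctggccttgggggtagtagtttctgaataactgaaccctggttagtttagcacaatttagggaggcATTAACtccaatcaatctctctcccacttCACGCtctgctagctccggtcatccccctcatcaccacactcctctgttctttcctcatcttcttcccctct
Cyp4f5: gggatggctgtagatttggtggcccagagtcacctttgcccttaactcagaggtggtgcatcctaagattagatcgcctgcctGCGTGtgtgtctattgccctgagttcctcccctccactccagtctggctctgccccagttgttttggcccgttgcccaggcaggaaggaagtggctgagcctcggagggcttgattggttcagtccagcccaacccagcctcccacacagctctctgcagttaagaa
Cyp4f6: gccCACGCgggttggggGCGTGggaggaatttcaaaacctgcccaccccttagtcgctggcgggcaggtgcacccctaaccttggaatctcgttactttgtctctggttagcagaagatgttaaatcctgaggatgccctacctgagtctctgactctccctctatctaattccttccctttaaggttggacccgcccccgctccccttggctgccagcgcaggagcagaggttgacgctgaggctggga
Cyp3a9: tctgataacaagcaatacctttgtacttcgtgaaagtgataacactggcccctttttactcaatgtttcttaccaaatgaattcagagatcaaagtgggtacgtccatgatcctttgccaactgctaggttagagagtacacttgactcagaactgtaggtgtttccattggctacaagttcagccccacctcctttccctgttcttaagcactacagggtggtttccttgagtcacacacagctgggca
GCGTG was found in the Cyp4f1, Cyp4f5 and Cyp4f6 stretches, with a first base at -72 in Cyp4f1, at -167 in Cyp4f5 and at -247 and -233 in Cyp4f6, counted from the start site. Of 24206 such promoters, 27.8% hold it, and 11 of the 33 compared member genes with a promoter did. GTTAAT was found in Cyp4f1, at -101, and in 6.56% of all promoters. The Cyp3a9 stretch held none of the 6 motifs searched. The others were the TATA box TATAAA (in 13.3% of all promoters), the nuclear receptor motif AGGTCA (13.5%), the antioxidant response core TGACNNNGC (10.2%) and the sterol response core TCACNCCAC (0.958%), all searched on both strands with overlaps allowed. In a global alignment the 3 Cyp4f stretches were 43.4 to 46.7% identical to each other. A match is a description of the letters and not a site of binding.

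Cyp4f1 (M94548_at) had signals of 3989.8, 4669.9 and 4561 on the CAS arrays, 1642, 1392 and 1550.0 on the SPI arrays and 819.9, 625.5 and 843.5 on the WPH arrays. No array of one diet reached the range of another. It was 5.78-fold lower with WPH than with CAS (log2 change -2.54 ± 0.13 SE, adjusted p = 8.98e-08), 2.88-fold lower with SPI (-1.53 ± 0.13, adjusted p = 1.02e-05) and 2.00-fold higher with SPI than with WPH (adjusted p = 0.000236). These values compare pools. The study lists RT-PCR primers for Cyp4f1 but does not name it among the genes whose difference passed in individual rats. For some other genes, which it does not name, it reports mean changes in the direction of the arrays that did not pass because rats varied.

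Cyp4f4 (U39206_at), another fatty acid hydroxylase of this cluster, read 431.1, 369.2 and 446.8 (CAS), 57.2, 79.9 and 54.3 (SPI) and 65.8, 58.5 and 69.8 (WPH). It lay above 100 on CAS arrays alone, and the SPI and WPH arrays overlapped. It was at least 4.16-fold lower with either diet than with CAS, with signals under 100 set to 100 (adjusted p = 3.56e-06 with WPH and 1.02e-05 with SPI). Markers of epididymis and male accessory glands ran the same way. Their summed signal was 9987 to 10999 with CAS, 703.1 to 764.8 with SPI and 406.0 to 632.7 with WPH. Of the markers compared, 7 of 7 passed as lower for WPH and 6 of 7 for SPI. The brightest with CAS were Cd52, Defb1, Ptgds and Adam7, with CAS means of 3419, 2238, 1985 and 1711. The means of Gpx5, Svs5 and Pbsn were under 100 in every diet. This list was drawn up with its levels here known, and its part in the Cyp4f4 result was not tested.

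Cyp4f5 (U39207_at) read 436.0, 464.7 and 493.2 (CAS), 361.4, 367.2 and 380.0 (SPI) and 139.1, 171.8 and 140.5 (WPH). It was 3.09-fold lower with WPH than with CAS (adjusted p = 2.9e-06) and 2.46-fold higher with SPI than with WPH (adjusted p = 4.94e-05). The arrays of all 3 diets were apart, but the difference of SPI from CAS, 1.26-fold, did not pass (log2 change -0.33 ± 0.13 SE, adjusted p = 0.108). Cyp4f6 (U39208_at) had a mean ± SD over the 3 arrays of 872.2 ± 79.2 (CAS), 687.0 ± 69.9 (SPI) and 657.3 ± 21.6 (WPH), and was 1.33-fold lower with WPH (adjusted p = 0.015, 0.0672 without CAS array 3).

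Cyp4b1 (M29853_at), which hydroxylates fatty acids and activates some lung and bladder toxins, read 358.5, 407.3 and 583.7 (CAS), 255.9, 272.9 and 267.8 (SPI) and 248.1, 181.4 and 222.1 (WPH). Every CAS array was above every array of the other diets. The WPH level lay 2.07-fold under CAS (adjusted p = 0.00115) and the SPI level 1.69-fold (adjusted p = 0.0177, 0.0689 at most without CAS array 3 or SPI array 1). Of the Cyp4 members without a change, Cyp4a8 (rc_AA893011_at), of the Cyp4a group of fatty acid hydroxylases, averaged 200.5 ± 62.5 (CAS), 157.6 ± 56.3 (SPI) and 242.8 ± 89.8 (WPH).

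**Figure D3:**
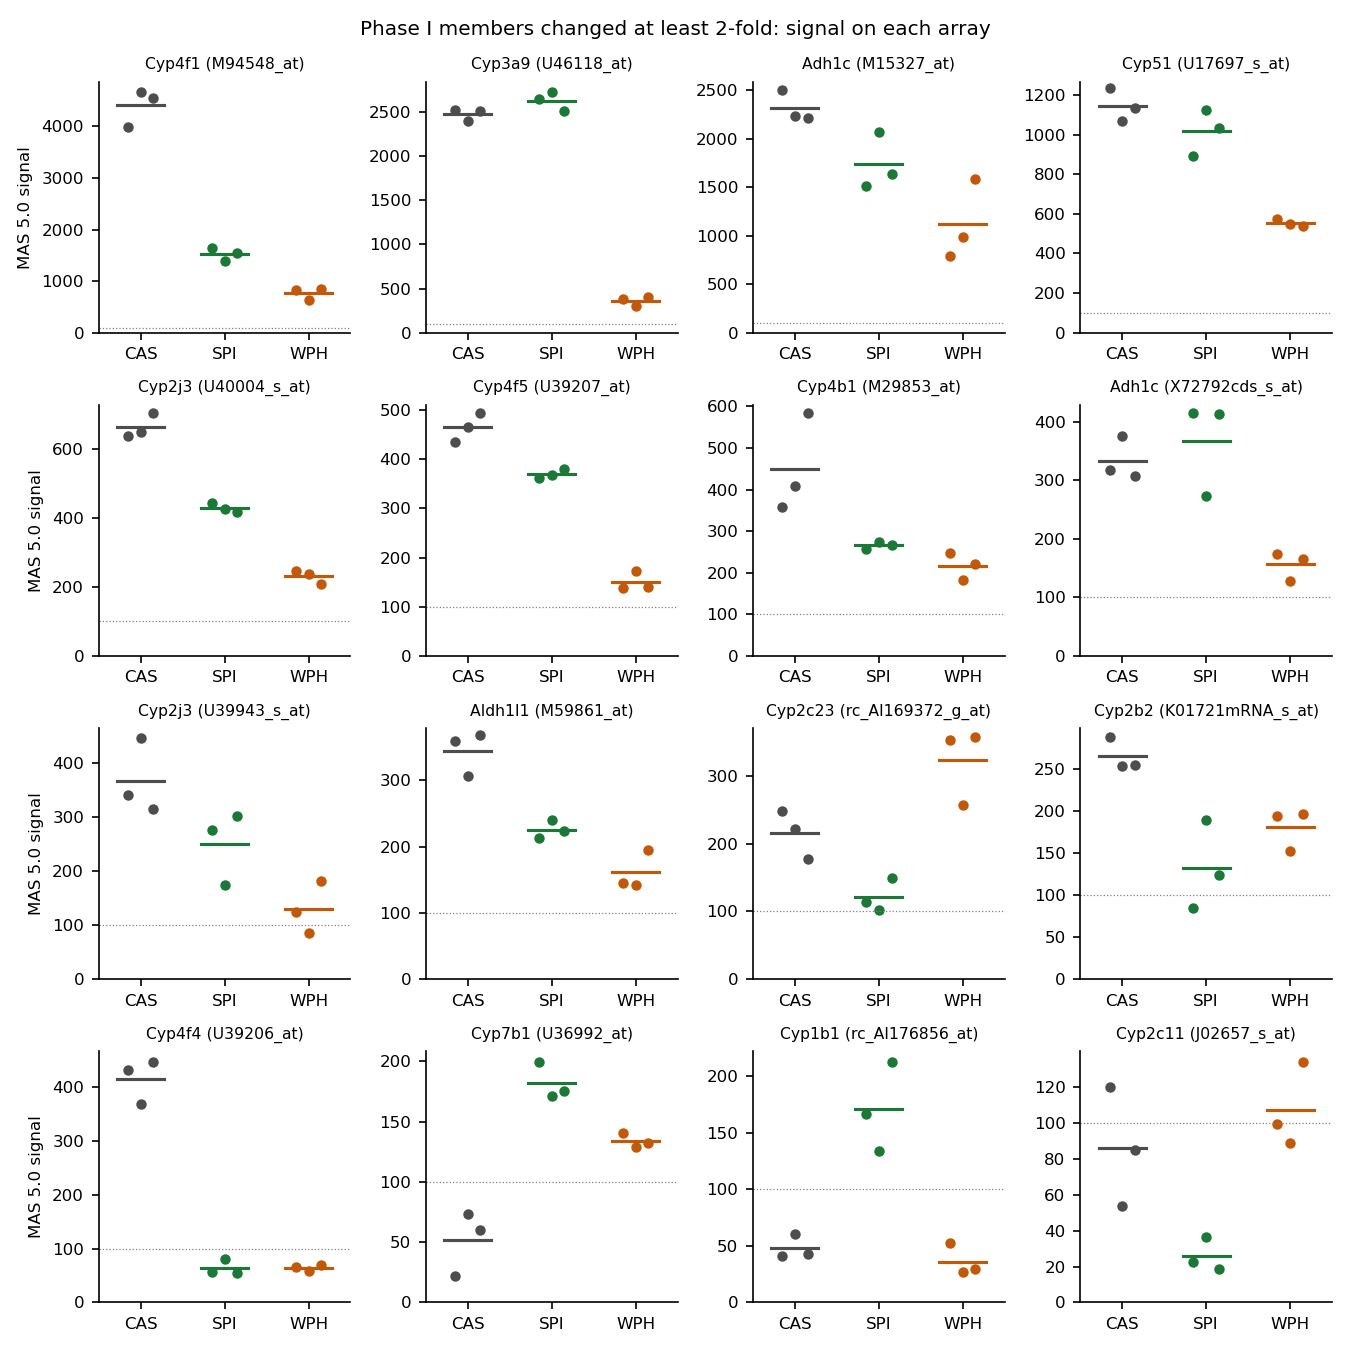
MAS 5.0 signal (vertical axis, from 0) on each of the 9 arrays for the 16 probe sets that changed with a ratio of mean signals of at least 2 in a comparison, where the ratios of Cyp4f4, Cyp7b1, Cyp1b1 and Cyp2c11 rest on signals under 100; points are arrays, short lines diet means, and the dotted line is a signal of 100. Cyp3a9 has WPH arrays at 300.3 to 400.8 and all other arrays at 2398 or more, whereas Cyp4f4 is over 100 on CAS arrays alone.

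Of the Cyp1 to Cyp3 families, 21 of 53 probe sets were compared, and 4 were lower and 1 higher with WPH, and 5 lower and 1 higher with SPI. The 19.0% lower with WPH lay near the 17.9% of all probe sets, and with SPI 23.8% were lower against 10.2% of all. Cyp3a9 (U46118_at), a member of the Cyp3a group that oxidizes steroids and drugs, read 2527, 2398 and 2517 (CAS), 2645, 2725 and 2509 (SPI) and 376.3, 300.3 and 400.8 (WPH). The CAS and SPI arrays overlapped and the WPH arrays lay far below. It was 6.91-fold lower with WPH than with CAS (log2 change -2.80 ± 0.11 SE, adjusted p = 2.26e-08) and 7.31-fold higher with SPI than with WPH (adjusted p = 2.39e-08), while SPI and CAS differed by 1.06-fold (log2 change 0.08 ± 0.11, adjusted p = 0.673). Of the 13 epithelial markers, 10 were lower with SPI than with CAS, and Krt18, Krt19 and Cdh17 did not pass. These differed with SPI by 1.09-fold, 1.12-fold and 1.16-fold and were 5.58-fold, 2.78-fold and 3.36-fold lower with WPH. The part of the epithelium in the Cyp3a9 result was not tested. The other 4 Cyp3a probe sets compared, all of Cyp3a23-3a1, did not pass in any comparison.

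Cyp2j3, an epoxygenase of arachidonic acid, had 2 probe sets that were compared. The first, U40004_s_at, which the study lists as a P450 pseudogene and the platform annotation as Cyp2j3, read 635.6, 647.2 and 702.2 (CAS), 443.2, 426.2 and 415.3 (SPI) and 244.6, 237.7 and 209.3 (WPH). The 3 diets did not overlap. The WPH level lay 2.87-fold under CAS (adjusted p = 1.67e-06) and the SPI level 1.55-fold (adjusted p = 0.00259), and SPI was 1.86-fold above WPH (adjusted p = 0.000285).

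The second, U39943_s_at, read 340.9, 446.8 and 314.6 (CAS), 275.7, 175.2 and 301.5 (SPI) and 123.8, 85.6 and 181.6 (WPH). The WPH level lay 2.82-fold under CAS (adjusted p = 0.00121), with a log2 change of -0.57 ± 0.29 SE for SPI that did not pass (adjusted p = 0.191). It was 1.92-fold higher with SPI than with WPH (adjusted p = 0.0342, 0.127 at most without 1 of SPI arrays 1 and 3 or WPH arrays 1 and 2). Related Cyp2j genes lie beside Cyp2j3 and their transcripts could share these probes.

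Cyp2c23 (rc_AI169372_g_at), the arachidonic acid epoxygenase best known from kidney, went opposite ways in the diets. It read 248.0, 222.5 and 177.6 (CAS), 114.6, 101.5 and 148.8 (SPI) and 352.9, 258.0 and 358.2 (WPH), and no diets overlapped. It was 1.495-fold higher with WPH than with CAS (adjusted p = 0.0485, 0.173 at most without 1 of CAS arrays 2 and 3, SPI array 1 or WPH arrays 1 and 3), 1.78-fold lower with SPI (adjusted p = 0.0149, 0.0655 at most without CAS array 1 or SPI array 1) and 2.66-fold lower with SPI than with WPH (adjusted p = 0.000746). The last held whichever array was left out. Its other probe sets, U04733_s_at and X55446mRNA_at, had means under 100 in all diets and were not compared.

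Cyp2c11 (J02657_s_at), the male-specific P450 of rat liver, read 120.0, 53.7 and 84.9 (CAS), 22.5, 36.3 and 18.7 (SPI) and 99.1, 89.0 and 134.1 (WPH). It passed the minimum signal through the WPH arrays. It was lower with SPI than with WPH (at least 1.07-fold, with signals under 100 set to 100, adjusted p = 0.00618) and than with CAS (log2 change -1.72 ± 0.44 SE, adjusted p = 0.0154, 0.0807 at most without CAS array 1 or 3), and its CAS and WPH arrays overlapped. The difference from CAS lies between means of 86.2 and 25.8, both under 100, and with signals under 50 set to 50 it shrank to -0.71 on the log2 scale and did not pass (adjusted p = 0.133). Its other 2 probe sets had means under 100 in all diets.

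Hepatocyte markers were lowest with SPI, as were these Cyp2c members. Their summed signal was 778.2 to 853.1 with SPI, 1231 to 1405 with CAS and 2930.1 to 3132 with WPH, with 5 of 7 compared higher with WPH than with CAS, 4 of 7 lower with SPI, and means of Fgb and Tat under 100 in every diet. Alb averaged 121.8 (CAS), 46.8 (SPI) and 416.5 (WPH). Their part in the Cyp2c results was not tested.

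Cyp2b2 (K01721mRNA_s_at), the phenobarbital-inducible form, read 288.6, 253.1 and 254.2 (CAS), 84.4, 189.0 and 124.4 (SPI) and 194.1, 152.8 and 196.2 (WPH). All CAS arrays were above all others. It was 2.00-fold lower with SPI (adjusted p = 0.0125), and the 1.47-fold difference of WPH did not pass (log2 change -0.56 ± 0.26 SE, adjusted p = 0.117). A probe set shared by Cyp2b2 and Cyp2b1 stood outside the families and is given with no test. It averaged 426.2 (CAS), 392.7 (SPI) and 352.6 (WPH), and its CAS arrays overlapped with those of both other diets. Cyp2d2 (AB008423_s_at) averaged 360.9 ± 52.6 (CAS), 226.4 ± 46.4 (SPI) and 250.03 ± 28.2 (WPH). It was 1.59-fold lower with SPI (adjusted p = 0.0217) and 1.44-fold lower with WPH (adjusted p = 0.0432), and both calls were lost without 1 of several arrays, with an adjusted p of up to 0.0885 with SPI (CAS array 2 or 3 or SPI array 1) and 0.138 with WPH (CAS array 2 or 3, SPI array 2 or WPH array 1 or 2). The Cyp2b and Cyp2d genes are near-identical neighbours, and the probes may read more than 1 of them.

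Cyp1b1 (rc_AI176856_at), which hydroxylates estradiol and activates polycyclic aromatic carcinogens, read 41.3, 60.9 and 43.1 (CAS), 167.1, 134.4 and 213.0 (SPI) and 52.2, 27.0 and 29.2 (WPH). It was over 100 on SPI arrays alone and passed the minimum through them. It was at least 1.72-fold higher with SPI than with CAS and than with WPH (adjusted p = 0.00616 and 0.00182). The other 3 Cyp1b1 probe sets had means from 27.1 to 65.7 and were not compared, so that the difference rests on 1 probe set of 4. Ahr, the receptor through which Cyp1 genes are induced, had means from 38.0 to 66.5 and was not compared.

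Among Cyp1 to Cyp3 members without a change, Cyp2d4 (rc_AA997886_s_at) averaged 1132 ± 155 (CAS), 903.1 ± 76.5 (SPI) and 1102 ± 116 (WPH). Cyp2e1, chosen after its values were seen because it is known to oxidize AOM in liver, had 2 probe sets compared. M20131cds_s_at read 159.3, 112.9 and 140.6 (CAS), 129.8, 156.8 and 110.2 (SPI) and 177.4, 194.3 and 173.2 (WPH), with adjusted p of 0.143 for WPH and 0.883 for SPI. S48325_s_at differed between diets by at most 1.15-fold. These arrays were made 40 weeks after AOM and hold no measure of the enzyme at the time of the injections.

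**Figure D4:**
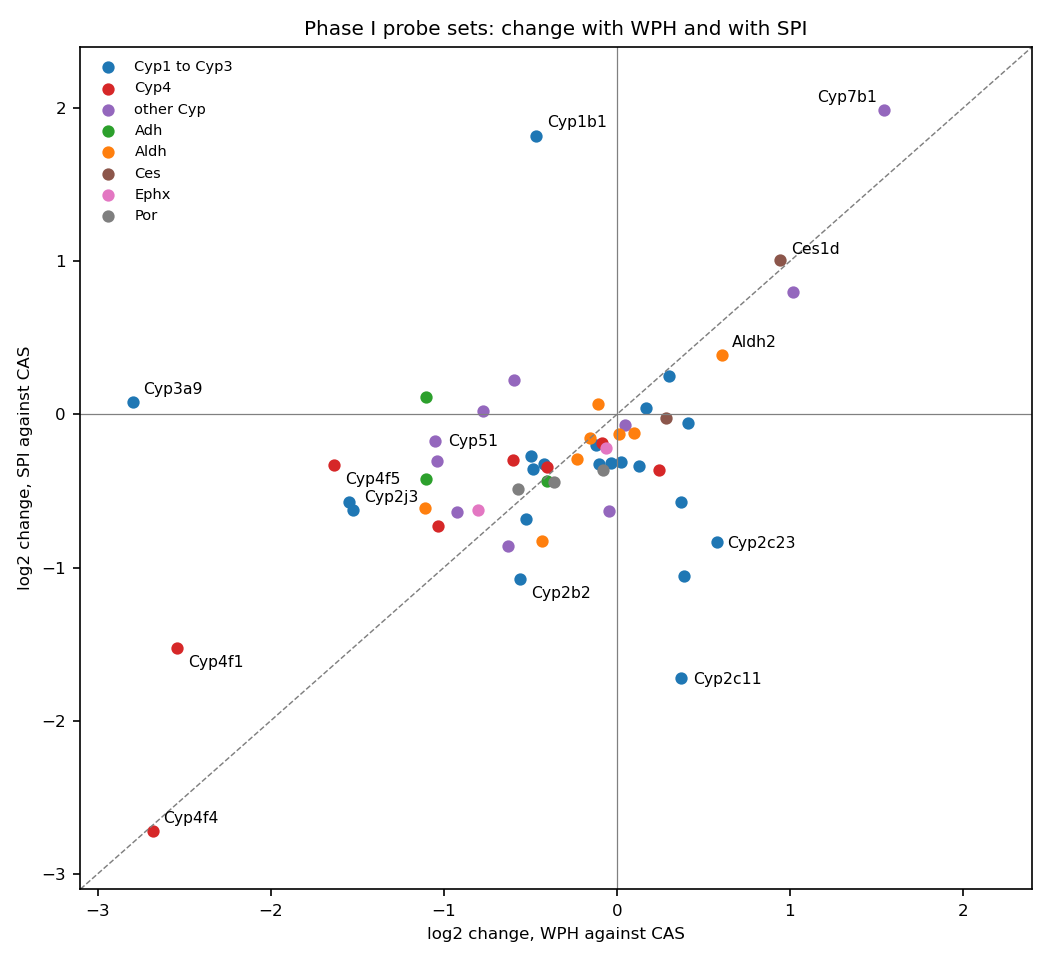
log2 change with WPH against CAS (horizontal axis) and with SPI against CAS (vertical axis) for the 57 probe sets compared, coloured by family; the dashed line marks equal change, and both axes share the CAS arrays. Cyp4f4 lies on the line, Cyp3a9 and Cyp4f5 to its left near no change with SPI, and Cyp2c23 and Cyp2c11 in the lower right.

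Of the other P450s, 10 of 19 probe sets were compared. Cyp51 is lanosterol 14α-demethylase, a step of cholesterol synthesis, and was read by 4 compared probe sets that were all lower with WPH and did not pass with SPI. U17697_s_at read 1234, 1069.7 and 1137 (CAS), 894.4, 1127 and 1033 (SPI) and 573.3, 547.3 and 539.4 (WPH), and its WPH arrays lay below all others. It was 2.07-fold lower with WPH than with CAS (adjusted p = 2.12e-05) and 1.84-fold higher with SPI than with WPH (adjusted p = 0.000259). The other 3 fell by 1.51-fold (AB004096_at, adjusted p = 0.00298), 1.68-fold (rc_AA963449_s_at, adjusted p = 0.0111) and 1.91-fold (rc_AA997614_s_at, adjusted p = 0.0203, 0.0908 at most without CAS array 1 or WPH array 1). Of these, AB004096_at and rc_AA963449_s_at were also higher with SPI than with WPH, by 1.76-fold (adjusted p = 0.000938) and by 1.75-fold (adjusted p = 0.0192, or 0.0733 at most without 1 of SPI arrays 1 and 2 or WPH arrays 2 and 3).

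Cyp7b1 (U36992_at), which hydroxylates oxysterols and steroids, read 21.6, 73.5 and 60.4 (CAS), 199.4, 171.0 and 175.7 (SPI) and 140.7, 128.7 and 131.9 (WPH). Every array of the 2 test diets was above every CAS array. It entered the comparison through the SPI and WPH arrays, since its CAS mean was 51.8. It was at least 1.82-fold higher with SPI and at least 1.34-fold higher with WPH, with the CAS signals set to 100 (adjusted p = 0.00395 and 0.00863). Cyp27a1 (M38566mRNA_s_at), the sterol 27-hydroxylase of mitochondria, averaged 592.6 ± 125 (CAS), 379.3 ± 49.3 (SPI) and 568.1 ± 52.0 (WPH). It was 1.56-fold lower with SPI than with CAS (adjusted p = 0.0182, 0.0767 at most without CAS array 2 or 3 or SPI array 1) and 1.498-fold lower than with WPH (adjusted p = 0.0284, 0.111 at most without SPI array 1 or 3 or WPH array 2 or 3). Its second probe set, Y07534cds_s_at, differed by 1.92-fold with SPI and did not pass (adjusted p = 0.072). Cyp24a1 (Z28351exon_s_at), which degrades vitamin D, averaged 219.7 ± 57.3, 219.5 ± 92.1 and 230.9 ± 84.0 with CAS, SPI and WPH.

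Alcohol dehydrogenases were lower with WPH in 3 of 3 probe sets compared, where 17.9% of all probe sets compared were lower. At a count this small the share says little. Adh1c, the class I enzyme that oxidizes ethanol and retinol, was read by 2 of the 3. M15327_at had signals of 2505, 2230.2 and 2218 (CAS), 1516, 2075 and 1640.5 (SPI) and 794.6, 989.9 and 1587 (WPH). X72792cds_s_at had signals of 318.0, 376.2 and 307.0 (CAS), 415.0, 272.8 and 412.9 (SPI) and 174.7, 128.9 and 165.6 (WPH). Both were lower with WPH than with CAS, by 2.06-fold and 2.13-fold (adjusted p = 0.00156 and 0.000925), with no overlap, and neither passed with SPI (adjusted p = 0.196 and 0.737). SPI was higher than WPH by 1.55-fold and 2.35-fold (adjusted p = 0.0435 and 0.00127), where the first call was lost on leaving out any array but WPH array 3 (adjusted p of at most 0.132). Adh5 (rc_AA874874_at), the class III enzyme that clears formaldehyde bound to glutathione, averaged 2429.5 ± 87.7 (CAS), 1798 ± 164 (SPI) and 1835 ± 40.5 (WPH), and was 1.35-fold lower with SPI and 1.32-fold lower with WPH (adjusted p = 0.00512 and 0.00409). Adh4 and Adh7 had means of at most 34.6 and were not compared.

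Aldehyde dehydrogenases went both ways, with 2 of 8 probe sets lower and 1 higher with either diet. At counts this small the shares say little against those of all probe sets (17.9% lower and 20.9% higher with WPH, 10.2% and 12.0% with SPI), and the 12.5% higher with SPI was at that background. Aldh1l1 (M59861_at), which oxidizes 10-formyltetrahydrofolate, read 359.3, 306.5 and 367.5 (CAS), 212.7, 239.7 and 224.2 (SPI) and 145.7, 141.9 and 195.0 (WPH). The diets did not overlap. The WPH level lay 2.14-fold under CAS (adjusted p = 0.000266) and the SPI level 1.53-fold (adjusted p = 0.0219, 0.084 at most without CAS array 1 or 3 or SPI array 1 or 3). Aldh6a1 (M93401_at), the methylmalonate semialdehyde dehydrogenase of valine breakdown, averaged 552.9 ± 7.77 (CAS), 312.0 ± 27.7 (SPI) and 410.0 ± 23.8 (WPH). It was 1.77-fold lower with SPI (adjusted p = 0.000452), 1.35-fold lower with WPH (adjusted p = 0.0117) and 1.31-fold lower with SPI than with WPH (adjusted p = 0.0338, lost on leaving out any array but CAS array 2, at most 0.108).

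Aldh2 (rc_AI172017_at), the mitochondrial enzyme that clears acetaldehyde, rose with both diets. It averaged 2289.8 ± 96.2 (CAS), 2994.5 ± 169 (SPI) and 3498 ± 354 (WPH), with every SPI and WPH array above every CAS array. The rise came to 1.53-fold for WPH (adjusted p = 0.000364) and to 1.31-fold for SPI (adjusted p = 0.0131, 0.0517 without CAS array 3). Smooth muscle markers, whose sum was 2.04-fold higher with WPH and 1.45-fold higher with SPI, moved the same way, and their part was not tested. Aldh7a1 (S75019_at), an enzyme of lysine breakdown, averaged 657.9 ± 74.2, 607.1 ± 79.0 and 705.5 ± 98.9 with CAS, SPI and WPH, and did not pass.

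Por, the electron donor of microsomal P450s, was read by 3 probe sets. M10068mRNA_s_at averaged 1323 ± 67.1 (CAS), 982.8 ± 176 (SPI) and 1028 ± 64.2 (WPH), and E01524cds_s_at averaged 386.0 ± 66.8, 273.9 ± 26.8 and 257.4 ± 16.2. Both passed as lower against CAS in each test diet, with log2 changes of -0.36 and -0.57 for WPH (adjusted p = 0.0402 and 0.0123) and of -0.44 and -0.48 for SPI (adjusted p = 0.0275 and 0.0454). All 4 calls were lost without CAS array 1, and 3 of them, all but that of E01524cds_s_at with WPH, also without CAS array 3 and others (adjusted p of at most 0.183). The third probe set, rc_AI137856_s_at, did not pass with either diet (adjusted p = 0.816 and 0.308).

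Ephx1 (M26125_at), the microsomal epoxide hydrolase, averaged 613.4 ± 38.4 (CAS), 401.1 ± 59.9 (SPI) and 351.7 ± 7.99 (WPH). It was 1.74-fold lower with WPH and, with SPI, 1.53-fold lower (adjusted p = 0.000515 and 0.00561), and no array of either diet reached the CAS range. Ephx2 (rc_AI104882_s_at), the soluble epoxide hydrolase that acts on fatty acid epoxides, averaged 334.5 ± 96.6, 280.5 ± 23.3 and 317.7 ± 71.8 with CAS, SPI and WPH and did not pass.

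Carboxylesterases were represented by 2 of 6 probe sets. Ces1d (L46791_at) averaged 462.2 ± 214 (CAS), 885.0 ± 207 (SPI) and 881.1 ± 383 (WPH). The 1.91-fold rise with WPH passed narrowly (adjusted p = 0.0478) with overlapping arrays, and was lost without 1 of CAS arrays 1 and 3, SPI arrays 1 and 3 or WPH arrays 1 and 2 (adjusted p of at most 0.175), while the 1.92-fold difference with SPI did not pass (adjusted p = 0.0575). Ces1dl1 (rc_AA800851_r_at) averaged 170.2 ± 9.70, 179.7 ± 75.2 and 214.9 ± 70.3 and did not pass. The single flavin monooxygenase probe set, Fmo1 (M84719_at), averaged 14.8 (CAS), 28.4 (SPI) and 58.3 (WPH) and was not compared.

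Over all families, 29 probe sets of 23 genes changed in at least 1 comparison. Against CAS, 11 were lower with both diets, 10 were lower with WPH and not called with SPI, 3 were lower with SPI and not called with WPH, and 2, Aldh2 and Cyp7b1, were higher with both. Cyp2c23 was higher with WPH and lower with SPI, Ces1d was called higher with WPH and Cyp1b1 with SPI. No matching counts were made over all probe sets compared, so the 29 and the joint counts describe the members alone. A call in one diet and not in the other does not show a difference between them. The test between SPI and WPH passed for 15 members, and was passed in the direction of more transcript with SPI by Cyp3a9, Cyp4f1, Cyp4f5, both Cyp2j3 probe sets, 3 of Cyp51, both of Adh1c and Cyp1b1. Cyp2c23, Cyp2c11, Cyp27a1 and Aldh6a1 were lower with SPI than with WPH. The remaining 28 probe sets, of 21 genes without a call for that probe set, had log2 changes from -1.04 to 1.02 with WPH and from -1.05 to 0.80 with SPI.

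Other genes that serve or resemble these enzymes were read by 1 probe set each. Of 6 measured genes that pass electrons to P450s or bind them, none changed with SPI against CAS. With WPH 1 was lower, or 16.7%, near the 17.9% of all probe sets. That gene, Cyb5b, the outer mitochondrial cytochrome b5, averaged 346.5 ± 27.5 (CAS), 301.0 ± 18.4 (SPI) and 194.3 ± 11.8 (WPH), 1.78-fold lower with WPH than with CAS (adjusted p = 0.000426). Of 18 receptors and transcription factors of phase I genes that were compared, 8 were lower and 1 higher with WPH, and 2 were lower with SPI, with median log2 changes of -0.45 and -0.18. The 44.4% lower with WPH stood against 17.9% of all probe sets, and the 11.1% lower with SPI was near the 10.2% of all. Foxa3, a forkhead factor of gut and liver, averaged 534.8 (CAS), 274.1 (SPI) and 76.9 (WPH), a fall of at least 5.35-fold with WPH and of 1.95-fold with SPI (adjusted p = 9.52e-07 and 0.00483). Foxa2 and Hnf4a were at least 1.58-fold and 2.03-fold lower with WPH (adjusted p = 4.23e-05 and 0.000652), and Nr1h4, the bile acid receptor, 2.14-fold lower (adjusted p = 0.0061). None of these 3 passed with SPI (adjusted p = 0.0869, 0.251 and 0.546). Several of these factors are themselves genes of epithelial cells.

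Of 26 other oxidoreductases and hydrolases of phase I that were compared, 13 were lower and 5 higher with WPH, and 10 were lower and 3 higher with SPI, with median log2 changes of -0.37 and -0.32. Thus 50% were lower with WPH against 17.9% of all probe sets, and 38.5% with SPI against 10.2%. Dao, the D-amino acid oxidase, averaged 273.9 (CAS), 50.5 (SPI) and 12.4 (WPH), at least 2.74-fold lower with both diets (adjusted p = 2.9e-06 with WPH and 0.000725 with SPI). Hsd17b2, which inactivates estradiol and testosterone, averaged 260.7 (CAS), 457.1 (SPI) and 68.1 (WPH), 3.83-fold lower with WPH than with CAS (adjusted p = 0.00106), and the 1.75-fold difference with SPI did not pass (adjusted p = 0.178). Dpyd, which degrades pyrimidines, was 3.15-fold lower with WPH and, with SPI, 1.73-fold lower (adjusted p = 8.47e-05 and 0.0168). Xdh, xanthine dehydrogenase, rose 3.49-fold with SPI and 1.69-fold with WPH (adjusted p = 7.21e-07 and 0.000188).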

How the data were processed

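The authors hybridized 9 Affymetrix arrays, 3 per diet, analysed the images in MAS 5.0 and scaled the mean fluorescence of every array to 1 constant target. The deposited table holds these signals as linear intensity values. The instrument settings files were read for the time of each array, from which the fluidics rounds were inferred.

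Signals under 0.1 were set to 0.1 and log2 transformed with no further normalization. Of the 8740 probe sets that are not controls, 5606 with a mean of at least 100 in at least 1 diet were fitted on all 9 arrays in limma 3.58.1 (R 4.3.3) with a variance trend, and p-values were adjusted by Benjamini-Hochberg over all of them. A probe set counted as changed at an adjusted p under 0.05. Every adjusted p in the text is from limma unless another test is named. Folds are ratios of mean signals. A fold is given as "at least" where all 3 arrays of a diet were under 100, with signals under 100 set to 100. SD and SE cover 3 technical arrays, whose number limits the precision. Levels were not compared between probe sets.

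The platform annotation gave 7018 probe sets 1 gene symbol, 308 several and 1473 none. Probe sets with 2 phase I symbols (16) stayed outside the families. P450 genes are near-identical in part, so a probe set may read a neighbour. The members, gene lists and markers were chosen with earlier results of these data known. Named were the members changed, those changed by at least 2-fold in full, and the brightest unchanged member of each family. Alternatives were the floor, the pseudocount, the minimum signal, other normalizations, no variance trend, the compared diets alone, the methods' t-test, fold rules, the replicate number and the round as blocks, and each array left out. The fit was tested on simulated data. Protein sequences were not used here. Upstream sequences (RefSeq, GRCr8) took their place, a choice made after the signals were seen, and 33 of the 42 compared genes had a single promoter there.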

Additional observations from a re-analysis of the deposited data

How the results depend on the processing

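None of the counts or named changes reversed under any alternative run. With the fluidics round as a block, the counts of members were 1 higher and 18 lower for WPH against CAS, 0 higher and 3 lower for SPI against CAS, and 9 higher and 2 lower for SPI against WPH. SPI and CAS shared no round, so that this fit links them through WPH. With the methods' t-test after adjustment, 2 members were higher with WPH and 9 lower with SPI against CAS, and 6 were higher and 2 lower for SPI against WPH. A rule of at least 2-fold between mean signals as measured, dim ones included, gave 1 higher and 11 lower for WPH, 4 lower for SPI, and 5 higher and 2 lower for SPI against WPH. Asking for 2-fold in 9 of 9 array pairs gave 0 higher and 5 lower for WPH, 2 lower for SPI, and 3 higher and 0 lower for SPI against WPH. With 1 probe set per gene, 7 were higher with SPI than with WPH.

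Leaving out each array in turn gave 2 to 4 higher and 19 to 22 lower for WPH, 2 to 4 higher and 8 to 16 lower for SPI, and 8 to 11 higher and 1 to 5 lower for SPI against WPH. Of 58 calls, 37 were kept whichever array was left out. Under all of up to 21 refits with an adjusted or unadjusted p, the fold rules and the values within a round aside, 24 were kept, 15 of 25 for WPH against CAS, 2 of 18 for SPI against CAS (Cyp4f1 and Cyp4f4) and 7 of 15 between SPI and WPH. Replicate numbers did not pair the samples, with correlations of deviations from -0.27 to 0.24, and with the replicate block 2 members were higher with WPH than with CAS. Members near a signal of 100 are limited by background.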

Other observations

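Some probe sets stood outside the families because the platform gives them 2 phase I symbols. Those described here were chosen after their values were seen, with no test. Others overlapped between diets, among them the one shared by Cyp2b2 and Cyp2b1. The probe set shared by Cyp2d5 and Cyp2d1 read 1235.0, 1349 and 1130.2 (CAS), 312.2, 331.2 and 257.3 (SPI) and 189.8, 173.8 and 87.7 (WPH), so that every CAS array was above every other array. The one shared by Ces2 and Ces2c, intestinal carboxylesterases, read 549.4, 615.1 and 645.0 (CAS), 563.5, 570.4 and 541.5 (SPI) and 130.8, 100.3 and 111.2 (WPH). Its WPH arrays alone were low, as with Cyp3a9. The one shared by Ces1dl1 and Ces1d read 152.7, 200.2 and 188.7 (CAS), 306.9, 341.1 and 382.1 (SPI) and 380.9, 483.6 and 450.9 (WPH), with every CAS array below the others.

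Markers of small intestinal enterocytes were highest with SPI, with summed signals of 5749.8 to 6163 against 3112 to 3216 with CAS and 1828 to 2012 with WPH. Of 9 such genes compared, 6 were higher and 1 lower with SPI, and 2 were higher and 3 lower with WPH. The mean of Si, sucrase-isomaltase, which defines these cells, was under 100 in every diet. Adipocyte markers were higher in 4 genes and lower in 1 with either diet. What part any of these markers had in the phase I results was not tested.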
